A study of Arabidopsis thaliana with 6 samples.

Results

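The 8 genes described here encode proteins that make, modify or carry ceramide and related sphingolipids in Arabidopsis. They were taken by their locus identifiers from a table of 32678 genes. AT4G39670, ACD11 (AT2G34690) and GLTP1 (AT2G33470) encode glycolipid transfer protein (GLTP) family proteins, LOH1 (AT3G25540), LOH2 (AT3G19260) and LOH3 (AT1G13580) encode ceramide synthases, ERH1 (AT2G37940) encodes an inositolphosphorylceramide (IPC) synthase and ACD5 (AT5G51290) a ceramide kinase. The set was put together by function with earlier results of the same comparison known. The values of these 8 genes, and their calls in the fit over all genes, are therefore a description and no independent test.

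Transcripts were sequenced from leaves of 35S:RPS4 plants, labelled Col-0 35S:RPS4-HS, and of Col-0 wild-type plants, with 3 libraries of each genotype. RPS4 is an intracellular immune receptor of the TIR-NBS-LRR class, here expressed in the Col-0 background from the constitutive 35S promoter, so that the excess of receptor is not limited to 1 cell type. Plants of both genotypes grew for 3.5 weeks at 28 °C, which holds the receptor back, and were frozen 2 h after a move to 19 °C, which releases it without a pathogen. The comparison therefore asks how transcript levels differed between genotypes shortly after receptor release, with the temperature change common to both. None of the libraries compared was taken before the move. A difference already present at 28 °C therefore cannot be told apart from one that arose after it.

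Plant sphingolipids begin in the endoplasmic reticulum, where serine palmitoyltransferase makes long-chain bases and ceramide synthases join them to a fatty acid. LOH2 prefers palmitic acid, whereas LOH1 and LOH3 prefer very-long-chain fatty acids. Ceramide then receives glucose, or the inositol phosphate that starts the glycosyl inositol phosphorylceramides (GIPCs) of the plasma membrane, and its accumulation is known to promote cell death. Mutants in ACD11, ACD5 and ERH1 are known for cell death phenotypes linked to defence.

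The coding sequences show how separate these genes are at the level of the reads. In the RefSeq TAIR10.1 annotation, AT4G39670 lies on chromosome 4 from 18409846 to 18411069 on the plus strand, without an intron and with 690 coding bp. ACD11 (chromosome 2, 14629986 to 14632082, plus strand) and GLTP1 (chromosome 2, 14176356 to 14178800, minus strand) have 621 bp over 4 coding exons and 609 bp over 6. Aligned coding bases of AT4G39670 were identical to those of ACD11 at 59.9% and to those of GLTP1 at 58.7%, and the longest identical run with ACD11 was 14 bp. ERH1 (chromosome 2, 15876717 to 15880103, plus strand) was closest to IPCS1 at 85.7%, with a run of 38 bp. LOH1 (chromosome 3, 9274335 to 9276685, plus strand) and LOH3 (chromosome 1, 4644521 to 4647142, minus strand) were 79.9% identical, with a run of 25 bp. LOH2 (chromosome 3, 6669065 to 6671638, minus strand) stood further off, at 59.1% to LOH1 and 60.6% to LOH3. Reads with more than 1 alignment were left out of the gene counts.

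The 250 bp before the annotated gene start are shown for the 3 genes with raised transcripts, and for ACD11 and LOH1 as relatives without a call, to set the upstream sequences beside the levels. They are RefSeq TAIR10.1 sequence, read 5′ to 3′ on the strand of the gene, and capitals mark TATAAA on either strand, which reads TTTATA where it lies on the other strand.
AT4G39670 (chr4:18409596-18409845, plus strand): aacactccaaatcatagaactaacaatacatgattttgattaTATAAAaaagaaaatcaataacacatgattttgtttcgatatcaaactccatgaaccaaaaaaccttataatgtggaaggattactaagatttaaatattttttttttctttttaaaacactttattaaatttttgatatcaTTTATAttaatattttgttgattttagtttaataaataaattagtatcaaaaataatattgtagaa
ERH1 (chr2:15876467-15876716, plus strand): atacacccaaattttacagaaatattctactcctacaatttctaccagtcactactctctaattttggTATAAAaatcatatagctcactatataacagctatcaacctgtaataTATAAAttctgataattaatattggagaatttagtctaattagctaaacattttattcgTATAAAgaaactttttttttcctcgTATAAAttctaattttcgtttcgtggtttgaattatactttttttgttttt
LOH2 (chr3:6671639-6671888, minus strand): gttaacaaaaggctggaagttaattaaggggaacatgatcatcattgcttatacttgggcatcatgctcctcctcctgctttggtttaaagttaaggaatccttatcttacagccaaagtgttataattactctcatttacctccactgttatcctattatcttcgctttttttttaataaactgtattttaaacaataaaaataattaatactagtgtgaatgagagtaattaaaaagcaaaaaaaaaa
ACD11 (chr2:14629736-14629985, plus strand): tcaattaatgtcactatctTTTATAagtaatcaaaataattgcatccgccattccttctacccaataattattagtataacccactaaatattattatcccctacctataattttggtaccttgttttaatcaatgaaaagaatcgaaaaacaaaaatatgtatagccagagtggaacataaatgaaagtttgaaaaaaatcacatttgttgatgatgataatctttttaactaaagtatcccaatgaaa
LOH1 (chr3:9274085-9274334, plus strand): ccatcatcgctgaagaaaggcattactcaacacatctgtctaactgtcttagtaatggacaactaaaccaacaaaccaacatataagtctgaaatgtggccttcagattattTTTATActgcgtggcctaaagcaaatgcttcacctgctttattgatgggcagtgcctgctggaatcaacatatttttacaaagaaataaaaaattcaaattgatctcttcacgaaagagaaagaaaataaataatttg

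Motifs were sought on both strands, and the same was done in 27443 promoters of that length. TATAAA stood in 5 of the 8 promoters and in 47.3% of all. It occurred in AT4G39670 at -208 and -66, in ERH1 at -182, -135, -76 and -51, in ACD11 at -231 and in LOH1 at -138, counted from the annotated start, and LOH2 had none. CAMTA factors bind a core of CGCG or CGTG. Either core, without regard to the bases around it, was in 2 of 8 promoters and 49% of all, in ERH1 at -30 and in LOH1 at -129 and -29. The narrower form, CGCG with A, C or G before it and C, G or T after it, was in 0 of 8 and 6.23% of all. The G-box CACGTG, which holds the core CGTG, was in 0 of 8 and 6.49% of all. The W-box, TTGACC or TTGACT, to which WRKY factors bind, was found in GLTP1 at -92 and ACD5 at -186, thus in 2 of 8 against 28.4% of all. These matches are letters in a window and not mapped binding sites.

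Gene counts came to between 28659022 and 31007551 per library, and 18382 genes entered the test. RPS4 transcripts reached 605, 759 and 907 CPM (counts scaled to a common library size with TMM factors) in 35S:RPS4 replicates 1 to 3, against 21.2, 29.8 and 30.2 CPM in Col-0. Over the 379 genes most strongly raised in 35S:RPS4 (log2FC above 3 and at least 10 CPM), replicate 1 of 35S:RPS4 had a median of 0.557 times the mean of replicates 2 and 3, and for RPS4 itself 0.726 times. The 4 leaf mesophyll markers summed to 45307 to 51958 CPM in 35S:RPS4 and 44932 to 47402 CPM in Col-0. Root, seed and flower markers were near 0, at no more than 5, 9 and 19 counts for any gene in any library. The labels do not say whether the 3 replicates were separate plants or pools, so the tests reflect no more than the variation from library to library.

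Of the 8 genes, 3 were called raised (AT4G39670, ERH1 and LOH2) at an edgeR false discovery rate (FDR) below 0.01 and a log2 fold change (log2FC, 35S:RPS4 over Col-0) above 1. No gene of the set was lowered, at those thresholds or at an unadjusted p below 0.05 in edgeR, and DESeq2 and limma voom also called 0 lowered. Among all tested genes 6.46% were raised and 1.37% lowered. At an unadjusted edgeR p below 0.05, 2407 of the 18382 tested genes were lower. These figures are printed for orientation only because the set was chosen on this contrast. For the same 3 genes all 35S:RPS4 libraries lay above all Col-0 libraries, which held for 17.9% of tested genes, and 16.3% lay below. The other 5 overlapped between genotypes. The median log2FC was 0.13 over the 8 genes and 0.01 over all genes. In leaf RNA as a whole, fewer cells with a transcript and less of it per cell cannot be told apart.

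**Figure D1:**
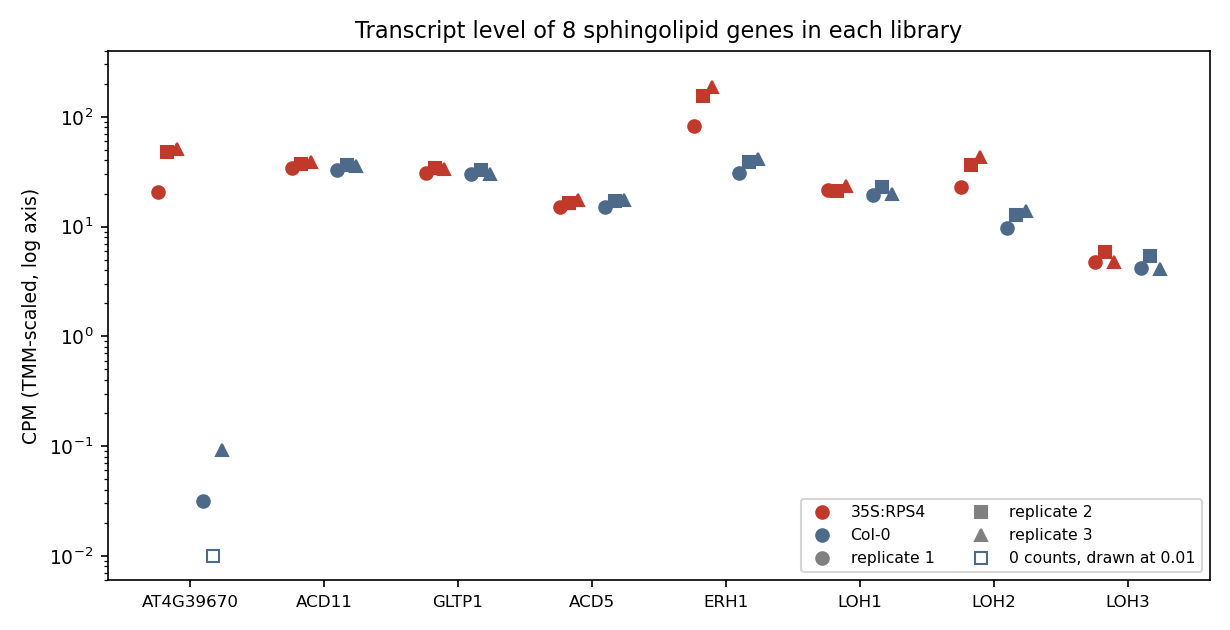
Transcript level in CPM (vertical log axis) of the 8 genes in each of the 6 libraries, with 35S:RPS4 in red, Col-0 in blue and a symbol for each replicate, and the Col-0 library without a count drawn open at 0.01. AT4G39670, ERH1 and LOH2 lie apart by genotype, and the other 5 genes overlap.

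Among the transfer proteins, AT4G39670 had a mean in 35S:RPS4 like those of ACD11 and GLTP1 and was almost without reads in Col-0. It was covered by 612, 1403 and 1382 reads in 35S:RPS4 replicates 1 to 3, that is 20.5, 47.6 and 50.5 CPM. Col-0 libraries held 1, 0 and 3 reads, that is 0.0317, 0 and 0.0926 CPM. Replicate 1 of 35S:RPS4 was the lowest of its group, at 0.418 times the mean of the other two, yet far above every Col-0 library. The pooled counts of 3397 in 35S:RPS4 and 4 in Col-0 differ 918-fold, and counting error alone puts this between 358-fold and 3369-fold (95%), without the spread between libraries. The gene entered the test through its 35S:RPS4 counts alone. The fitted log2FC was 9.72 (SE 0.68), and its size rests on the few Col-0 reads. Its SE was larger in other methods, at 0.92 in DESeq2 and 1.63 in voom. The log2FC ran from 9.21 to 10.91 in 13 alternatives. The lowest was without Col-0 replicate 2, which had no read, and the highest without Col-0 replicate 3, which had 3. AT4G39670 is known in the reference only as a GLTP family protein. The study measured it by RT-qPCR as an early gene under other treatments: a microbial pattern, avirulent bacteria and induced MLA protein. Under each, the genes so measured were reported lower in plants carrying a dominant camta3 mutation than in wild type. The study also compared its early genes, as a set, between induced MLA protein and RPS4 activation at 2 h. No RT-qPCR of AT4G39670 in 35S:RPS4 plants is described there.

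Both neighbours of AT4G39670 on the chromosome, named here after their values were seen, were not called. AGT2 (AT4G39660), an aminotransferase gene, had 857, 888 and 925 counts in 35S:RPS4 and 948, 858 and 988 counts in Col-0. AT4G39680 had 2194, 2090 and 1819 counts in 35S:RPS4 and 2465, 2081 and 2163 counts in Col-0.

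ACD11, which moves ceramide-1-phosphate between membranes and whose loss causes cell death dependent on salicylic acid, differed little between genotypes. Its level was 33.9, 37.3 and 39.1 CPM in 35S:RPS4 and 33.1, 36.4 and 35.9 CPM in Col-0. The groups overlapped, and the log2FC was 0.07 (SE 0.08, 95% interval -0.13 to 0.26). GLTP1, which transfers glucosylceramide, had 30.5, 33.8 and 33.8 CPM in 35S:RPS4 and 30.0, 32.5 and 30.1 CPM in Col-0. Here too the libraries of both genotypes interleaved, with a log2FC of 0.08 (SE 0.08, interval -0.10 to 0.27). The intervals of both genes leave no room for a change of 1 log2 unit in either direction.

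The reference names 5 genes with a GLTP product, and the remaining members are GLTP2 and GLTP3. GLTP3 had 0.805, 0.848 and 0.877 CPM in 35S:RPS4 and 0.887, 1.58 and 0.741 CPM in Col-0, without a call (log2FC -0.34, SE 0.33, edgeR FDR 0.591). GLTP2 was too low to be tested, at 0.0671 to 0.219 CPM in 35S:RPS4 and 0.190 to 0.309 CPM in Col-0. In RPKM, that is CPM per kilobase of transcript, the family summed to 85.5 ± 17.0 RPKM in 35S:RPS4 and 50.8 ± 2.46 RPKM in Col-0 (SD, n = 3 each). AT4G39670 made up 36.5 ± 9.64% of this sum in 35S:RPS4 and 0.0676 ± 0.0757% in Col-0. ACD11 accounted for 32.2 ± 4.75% in 35S:RPS4 and 50.7 ± 1.07% in Col-0, and GLTP1 for 30.6 ± 4.84% in 35S:RPS4 and 47.6 ± 0.944% in Col-0. In 35S:RPS4 leaves the means of these 3 genes were therefore alike, but single libraries were not. AT4G39670 made up 25.4% of the sum in 35S:RPS4 replicate 1, below ACD11 at 37.7%. In replicates 2 and 3 it made up 41.6% and 42.5%, above ACD11 at 29.3% and 29.5%. In Col-0 leaves the family consisted of ACD11 and GLTP1 almost alone.

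**Figure D2:**
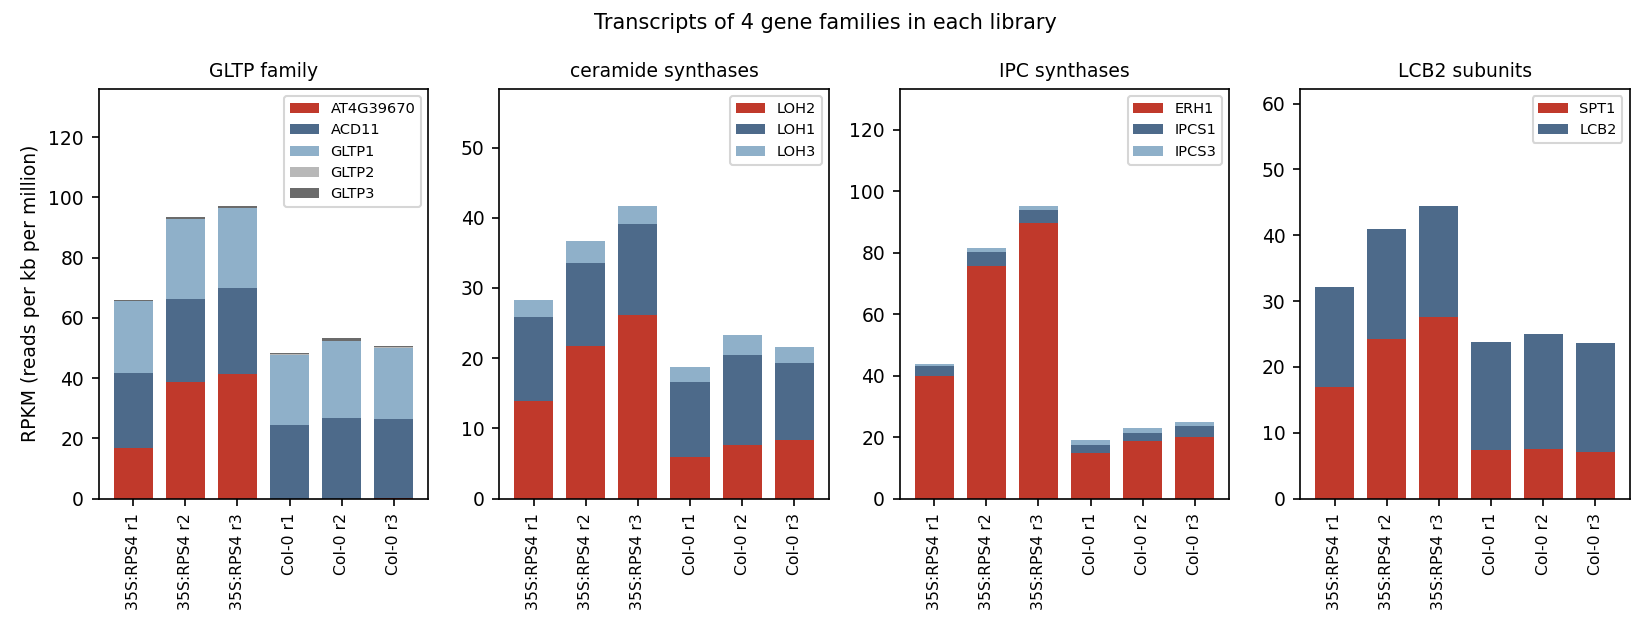
Stacked RPKM (CPM divided by transcript length in kilobases, vertical axes from 0) of the GLTP family, the ceramide synthases, the IPC synthases and the LCB2 subunits in each library, 35S:RPS4 on the left of each panel and Col-0 on the right, with the raised gene of each family in red at the base. The red part is larger in the 35S:RPS4 libraries of every panel, and smaller in replicate 1 than in replicates 2 and 3.

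Of the ceramide synthases, LOH2 was higher in 35S:RPS4 and LOH1 and LOH3 were not called. LOH2 stood at 23.0, 36.1 and 43.2 CPM in 35S:RPS4 and at 9.70, 12.7 and 13.8 CPM in Col-0. All 35S:RPS4 libraries lay above all Col-0 libraries, replicate 1 again nearest to them, and the log2FC was 1.50 (SE 0.25), a 2.82-fold difference of mean CPM. The size kept between 1.29 and 1.70 in 13 alternative analyses. The call held without 35S:RPS4 replicate 1 and was lost without any other library, at a log2FC of 1.45 without 35S:RPS4 replicate 2, 1.29 without 35S:RPS4 replicate 3, and 1.35, 1.53 and 1.60 without Col-0 replicates 1, 2 and 3.

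LOH1 had 21.5, 21.1 and 23.5 CPM in 35S:RPS4 and 19.3, 23.0 and 19.9 CPM in Col-0. LOH3, the least abundant synthase, had 4.76, 5.87 and 4.72 CPM in 35S:RPS4 and 4.18, 5.39 and 4.14 CPM in Col-0. Both overlapped between genotypes, with a log2FC of 0.09 (SE 0.10, interval -0.13 to 0.31) for LOH1 and 0.16 (SE 0.16, interval -0.22 to 0.54) for LOH3. By RPKM, LOH2 supplied 57.0 ± 7.17% of synthase transcripts in 35S:RPS4 and 34.3 ± 3.94% in Col-0 (SD, n = 3 each). LOH1 supplied 35.1 ± 6.04% in 35S:RPS4 and 54.2 ± 2.97% in Col-0, so that the leading synthase transcript was LOH2 in the first genotype and LOH1 in the second. The log2 ratio of LOH2 to LOH1 counts, which is free of library scaling, was 0.09, 0.77 and 0.88 in 35S:RPS4 and -0.99, -0.86 and -0.52 in Col-0.

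ERH1 joins inositol phosphate to ceramide, and its mutants show enhanced cell death with the resistance gene RPW8. Its transcripts reached 82.2, 156 and 185 CPM in 35S:RPS4 and 30.7, 38.5 and 41.5 CPM in Col-0. No library of 1 genotype reached the range of the other, although 35S:RPS4 replicate 1 had only 0.482 times the mean of replicates 2 and 3. The log2FC was 1.93 (SE 0.30), or 3.82-fold in mean CPM, and stayed between 1.69 and 2.20 in 13 alternatives. As for LOH2, the call held without 35S:RPS4 replicate 1 and was lost without any other library, at a log2FC of 1.86 without 35S:RPS4 replicate 2, 1.69 without 35S:RPS4 replicate 3, and 1.80, 1.96 and 2.03 without Col-0 replicates 1, 2 and 3. ERH1 gave 92.7 ± 1.71% of IPC synthase RPKM in 35S:RPS4 and 80.0 ± 2.05% in Col-0. IPCS1 gave 5.74 ± 1.57% in 35S:RPS4 and 13.2 ± 0.717% in Col-0, and IPCS3 1.56 ± 0.169% and 6.81 ± 1.41%. The smaller share of IPCS1 was not a lower level. IPCS1 had 5.30, 7.40 and 6.65 CPM in 35S:RPS4 and 4.31, 4.62 and 5.50 CPM in Col-0, without a call (log2FC 0.42, SE 0.17). IPCS3 was not called either (log2FC -0.41, SE 0.26).

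ACD5, the kinase that phosphorylates ceramide, did not follow ERH1 or LOH2. It was found at 15.0, 16.4 and 17.5 CPM in 35S:RPS4 and 15.1, 17.0 and 17.4 CPM in Col-0. The ranges nearly coincided, with a log2FC of -0.02 (SE 0.10, interval -0.25 to 0.21). ACD5 overlaps AT5G51280 on the opposite strand, and because the library kit does not mark strand, reads in the shared stretch cannot be told apart. AT5G51280 had 881, 791 and 809 counts in 35S:RPS4 and 863, 803 and 1007 counts in Col-0 and was not called.

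The order of the genes by level changed between genotypes. In 35S:RPS4 the mean RPKM was 68.5 ± 25.7 for ERH1, 32.3 ± 13.5 for AT4G39670, 27.0 ± 1.94 for ACD11, 25.6 ± 1.51 for GLTP1, 20.6 ± 6.20 for LOH2, 12.2 ± 0.715 for LOH1, 6.48 ± 0.516 for ACD5 and 2.73 ± 0.349 for LOH3. In Col-0 it was 25.8 ± 1.32 for ACD11, 24.2 ± 1.10 for GLTP1, 17.9 ± 2.70 for ERH1, 11.5 ± 1.11 for LOH1, 7.30 ± 1.29 for LOH2, 6.57 ± 0.485 for ACD5, 2.44 ± 0.381 for LOH3 and 0.0339 ± 0.0385 for AT4G39670 (SD, n = 3 each). Neighbours in this order that differed by less than the larger of their SDs were AT4G39670 with ACD11, ACD11 with GLTP1 and GLTP1 with LOH2 in 35S:RPS4, and LOH2 with ACD5 in Col-0.

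Genes with the most similar pattern were sought by Pearson's r of log2 CPM over the 6 libraries among 13394 genes with a mean of at least 5 CPM, as a description in which all points share the genotype split. The closest to AT4G39670 were AT3G15518 (r = 0.9997), the O-methyltransferase gene IGMT2 (0.9996) and BCS1 (0.9994). ERH1 was closest to the protein kinase gene AT3G46930 (0.9996), SNRK2.3 (0.9991) and CRK40 (0.9991), the last 2 encoding protein kinases as well. The r takes no account of size. The log2FC was 1.93 for AT3G46930, 0.47 for SNRK2.3 and 1.06 for CRK40, and 1.93 for ERH1. For LOH2 the closest were the receptor-like protein gene RLP54 (0.9990), ARO3 (0.9986) and LAZ5 (0.9985). Within the set, ERH1 and LOH2 correlated at 0.9974, and AT4G39670 at 0.9446 with ERH1 and 0.9383 with LOH2.

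To place the set in its pathway, 40 other sphingolipid genes were listed by function, of which 37 could be tested and GLTP2, DES-1-LIKE and GINT1 were too low. Of these, 4 were raised (SPP1, SPT1, IPUT1 and GONST1) and 0 lowered in edgeR, with 7 higher and 2 lower at an unadjusted p below 0.05, and DESeq2 and voom also called 0 lowered. Among all tested genes 6.46% were raised. At an unadjusted edgeR p below 0.05, 2741 of the 18382 tested genes were higher and 2407 lower. These figures are for orientation only, because the list was chosen with earlier results of these data known. The FDRs and calls of the list genes below carry the same limit. The median log2FC of the list was 0.05, against 0.01 for all genes.

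Upstream of the ceramide synthases, 1 of 7 genes for serine palmitoyltransferase and its regulators was raised. SPT1 (AT3G48780), which encodes an LCB2-type subunit, had 46.8, 67.2 and 76.3 CPM in 35S:RPS4 and 20.4, 20.8 and 19.8 CPM in Col-0. The 35S:RPS4 libraries all lay above, with a log2FC of 1.64 (SE 0.17, edgeR FDR 0.000716) and a call in all 13 alternatives. The other LCB2 gene, LCB2 itself (AT5G23670, log2FC -0.04, SE 0.08), and the partner subunit LCB1 (AT4G36480, log2FC 0.26, SE 0.08, edgeR FDR 0.0623) were not called. SPT1 therefore made up 57.9 ± 4.81% of LCB2-type RPKM in 35S:RPS4 and 30.4 ± 0.463% in Col-0. The log2 ratio of SPT1 to LCB2 counts was 0.56, 0.95 and 1.12 in 35S:RPS4 and -0.75, -0.81 and -0.79 in Col-0, a difference of 1.66 given without a test. The coding sequences of SPT1 and LCB2 are 86.7% identical, with a longest run of 34 bp.

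Enzymes that reduce, hydroxylate or desaturate long-chain bases were raised in 0 of 6 and lowered in 0 of 6 tested genes, with SLD1, a desaturase, at a log2FC of 0.01 and SBH1, a hydroxylase, at 0.14. TSC10B, a reductase gene named here after its values were seen, had 1.21, 1.12 and 1.24 CPM in 35S:RPS4 and 2.25, 2.12 and 2.04 CPM in Col-0. Its groups did not overlap, and it missed the call with a log2FC of -0.84 (SE 0.18, edgeR FDR 0.0169). The 5 genes for elongation and hydroxylation of the fatty acid were not called and ranged from -0.13 to 0.08, CER10, an enoyl reductase, at -0.13 and FAH1, a fatty acid hydroxylase, at -0.11.

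Head group genes held 2 raised of 6 tested, beside 6.46% of all tested genes. Both lie on the GIPC branch that ERH1 opens, as do all listed head group genes except GCS. IPUT1 (AT5G18480), which adds glucuronic acid to IPC, had 51.0, 64.5 and 77.2 CPM in 35S:RPS4 and 21.5, 27.0 and 28.7 CPM in Col-0 (log2FC 1.32, SE 0.17, edgeR FDR 0.00207). GONST1 (AT2G13650), a Golgi transporter of the nucleotide sugar used to mannosylate GIPCs, had 11.6, 15.6 and 18.9 CPM in 35S:RPS4 and 6.50, 7.65 and 7.94 CPM in Col-0 (log2FC 1.06, SE 0.18, edgeR FDR 0.00639). Neither gene overlapped between genotypes. Without 35S:RPS4 replicate 2 or Col-0 replicate 2, IPUT1 missed the FDR threshold at 0.0121 and 0.0122, with a log2FC of 1.32 and 1.35. GONST1 lost its call without any library other than 35S:RPS4 replicate 1, at a log2FC of 1.05 without 35S:RPS4 replicate 2, 0.89 without 35S:RPS4 replicate 3, and 0.97, 1.09 and 1.12 without Col-0 replicates 1, 2 and 3. The glucosylceramide synthase gene GCS (log2FC 0.23) and GMT1, the GIPC mannosyltransferase gene (0.08), were not called. The IPC synthase genes IPCS1 (0.42) and IPCS3 (-0.41) were not called either.

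Genes of ceramide breakdown were not called in any of 6 cases (log2FC -0.35 to 0.43), including the glucosylceramidase GCD3 at -0.02 and the ceramidase NCER2 at 0.00. Of 6 genes that phosphorylate long-chain bases or break them down, SPP1 (AT3G58490) was raised. SPP1, which removes phosphate from long-chain base phosphates, had 35.6, 61.0 and 68.7 CPM in 35S:RPS4 and 10.3, 9.54 and 10.9 CPM in Col-0. The genotypes stood clear of each other, with a log2FC of 2.43 (SE 0.25, edgeR FDR 0.000736) and a call in all 13 alternatives. It overlaps AT3G58500 on the opposite strand, which had 2289, 2216 and 2083 counts in 35S:RPS4 and 2385, 2245 and 2644 counts in Col-0 and was not called. The kinase gene LCBK1 (0.09) and LCBK2 (0.07) were not called.

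**Figure D3:**
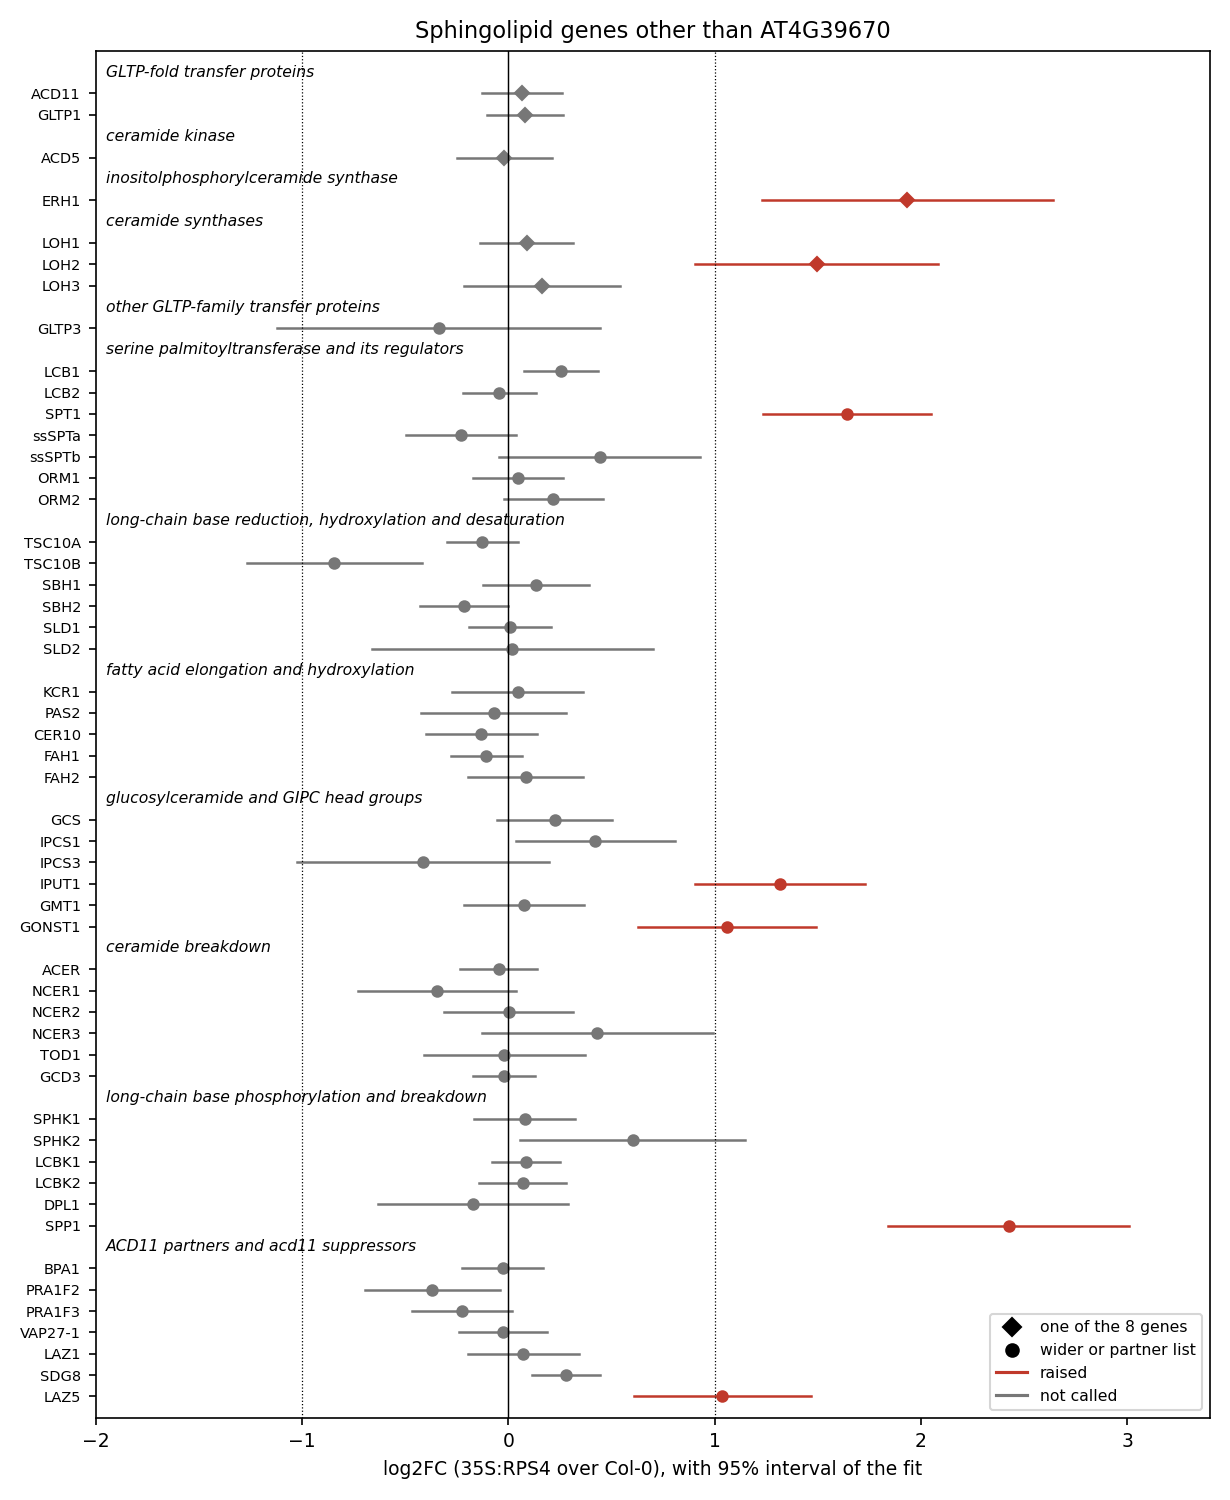
Log2FC of 35S:RPS4 over Col-0 (horizontal axis) with its 95% interval for 7 of the 8 genes (diamonds) and for the tested pathway and partner genes (circles), grouped by role, raised genes in red and dotted lines at -1 and 1. AT4G39670, at 9.72, is off this scale, and the red points are ERH1, LOH2, SPT1, IPUT1, GONST1, SPP1 and LAZ5.

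Finally, 7 genes whose products bind ACD11 or whose mutations suppress the acd11 phenotype were compared, and 1 was raised and 0 lowered in edgeR (2 higher and 1 lower at an unadjusted p below 0.05; 0 lowered in DESeq2 and voom), with a median log2FC of -0.03. Over all tested genes, 6.46% were raised and 1.37% lowered. At an unadjusted edgeR p below 0.05, 2741 of 18382 tested genes were higher and 2407 lower. These figures are for orientation only because this list too was chosen with earlier results known. LAZ5 (AT5G44870) encodes a TIR-NBS-LRR protein, like RPS4, and its mutants suppress acd11 cell death. It had 58.8, 80.1 and 90.4 CPM in 35S:RPS4 and 30.6, 39.8 and 41.3 CPM in Col-0, without overlap (log2FC 1.04, SE 0.18, edgeR FDR 0.00785). The call was lost without any library other than 35S:RPS4 replicate 1, with an edgeR FDR of 0.0378 without 35S:RPS4 replicate 2, 0.0243 without 35S:RPS4 replicate 3, and 0.0158, 0.0290 and 0.0243 without Col-0 replicates 1, 2 and 3, at log2FC values between 0.90 and 1.12. SDG8, a histone methyltransferase gene (log2FC 0.28, SE 0.07, edgeR FDR 0.0325), and VAP27-1 (-0.03, SE 0.09) were not called.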

How the data were processed

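Polyadenylated leaf RNA was made into libraries with the unstranded TruSeq RNA v2 kit. The authors deposited raw read counts per gene, without normalization. The submitters' processing notes name TAIR10, FastQC 0.11.2, TopHat2 2.0.10 and HTSeq, and the strand setting is not given in the sources used here. Summary lines that name no gene (6.45 to 8.30% of counts) were set aside.

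Counts were tested in R 4.3.3 with edgeR 4.0.16: scaling by TMM, filterByExpr at its defaults, robust quasi-likelihood fits and genotype as the sole term, two-sided, Benjamini-Hochberg adjusted over 18382 genes. Genes were called at an FDR below 0.01 and an absolute log2FC above 1, thresholds that the study states. The script was tested on simulated data. RPKM used the summed exon length of a gene. A count of 0.5 was added before log2 ratios. Each edgeR SE is the absolute log2FC divided by the square root of the quasi-likelihood F, and the intervals of log2FC follow from it. Intervals are at 95%, and counting intervals cover counting error only. Alternatives were 2 other scalings, DESeq2 1.42.0, voom in limma 3.58.1, no filter, a replicate block, and leaving out libraries, 13 in all. Gene models and promoters came from RefSeq TAIR10.1. Coding sequences were aligned with Biopython 1.88, and figures drawn with matplotlib 3.10.9.

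The 8 genes and the lists were chosen with earlier results of these data known. The genes named are the 8, RPS4, other GLTP products, the other IPC synthases and the 3 genes most correlated with each raised gene. Each called gene of the lists is named too, with up to 2 uncalled genes per role of largest mean CPM. Libraries within a group differed by a chi-square of 8.31 to 39.7 per gene, so none was a repeat of another. Libraries with the same replicate number deviated together from their group means (r = 0.47, 0.134 and 0.319 for numbers 1 to 3, over 16974 genes with a mean of at least 1 CPM, from the labels' numbers), although 35S:RPS4 replicate 2 with Col-0 replicate 3 (0.205) and 35S:RPS4 replicate 3 with Col-0 replicate 2 (0.155) did so too. The other pairs of unlike number ran from -0.405 to -0.222. The reported fit has no pairing term, and the pairing by number was used only in the replicate block.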

Additional observations from a re-analysis of the deposited data

How the results depend on the processing

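With the replicate block, calls came to 3 raised among the 8 genes, 4 in the pathway list, 1 in the partner list, and 1329 raised and 330 lowered over all genes, and no call of the 8 genes or of the list genes changed. AT4G39670, SPT1 and SPP1 were called in all 13 alternatives, and ACD11, GLTP1, ACD5, LOH1 and LOH3 in none. Without the filter on low counts 1 of the 8 genes was called, since ERH1 (log2FC 1.93, FDR 0.0216 in edgeR) and LOH2 (1.49, FDR 0.0139) missed the FDR threshold at nearly the same size. The cause was not tested. Upper-quartile factors and plain library size moved the median log2FC of all genes to -0.17 and -0.16. Under upper-quartile factors ACD11 (-0.11), GLTP1 (-0.10), LOH1 (-0.09) and LOH3 (-0.01) lay below 0, and under plain library size ACD11 (-0.10), GLTP1 (-0.08) and LOH1 (-0.08), so no direction is given for these genes. These scalings lowered 1 pathway gene (TSC10B, -1.02 and -1.01), raised 0 partner genes and lowered 391 and 377 genes in all (251 in the reported fit). GONST1 and LAZ5 were not called under either, and GONST1 not with voom (1.03, FDR 0.0105). Without both replicate 1 libraries 404 genes were lowered. When single libraries were left out, 1 to 3 of the 8 genes, 2 to 4 pathway genes and 0 to 1 partner genes were raised, 99 to 337 of all genes were lowered (108, 128, 105 and 99 without 35S:RPS4 replicates 2 and 3 and Col-0 replicates 2 and 3) and 841 to 1374 raised, ERH1 ran from 1.69 to 2.20 and LOH2 from 1.29 to 1.70. With 3 libraries per group and 4 Col-0 reads, the level of AT4G39670 in Col-0 is known only to lie between 0.0116 and 0.109 CPM (95% Poisson interval of the pooled counts).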
